A study of Mus musculus with 1 sample.

Results

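Extracellular metalloproteinases and their inhibitors were examined in mixed glia of the mouse ventral midbrain (VM). The genes were taken by name, as every row whose symbol begins with Mmp, Adamts or Timp followed by a digit. This gave 46 genes of 23282 rows, of which 42 encode proteases (23 Mmp and 19 Adamts genes) and 4 encode inhibitors (Timp1 to Timp4). The values came from 1 RNA-seq library of the control group, from primary cultures of outbred ICR(CD-1) mice at postnatal day 5. The table's column name marks it as vehicle (DMSO), the solvent given in place of the SGK1 inhibitor GSK-650394. Inhibitor-treated glia were not analysed here, so no comparison between conditions was made, and no value below has a replicate or an error between cultures.

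Matrix metalloproteinases (MMPs) are zinc-dependent enzymes that cut collagens, laminins, fibronectin and many cell-surface proteins. Most are secreted as inactive proenzymes, and some are anchored in the plasma membrane. ADAMTS enzymes carry thrombospondin repeats that bind matrix, and several of them cut the chondroitin sulfate proteoglycans that fill the extracellular space of the brain. Tissue inhibitors of metalloproteinases (TIMPs) block the active site of MMPs, and TIMP3 also inhibits ADAMTS enzymes. In brain the system is known for its part in basement membrane turnover, scar formation and opening of the blood-brain barrier.

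The authors called the deposited values normalised read counts. They summed to 27569507, and the number of sequenced reads behind them is unknown. Genes were called detected from a value of 10 upwards, which held for 67.2% of all rows. Because a long transcript yields more reads than a short one, levels of different genes were compared as the value per kilobase of annotated exon per 1000000 of the sum, called the length-scaled level below. The median length-scaled level of detected genes was 3.72. Markers of several cell types were read to describe the culture. All 6 astrocyte markers were detected, with values from 1850 to 17222, as were all 6 microglia markers (984 to 32619). All 5 fibroblast and mural cell markers were detected too (455 to 26499), as were all 4 oligodendrocyte lineage markers (48 to 16349). Of 4 neuron markers 3 were detected (6 to 868), and of 3 endothelial markers 2 (3 to 119). The median length-scaled level was 85.6 for the microglia markers and 24.8 for the astrocyte markers. It was 23.8 for the oligodendrocyte lineage, 19.7 for fibroblast and mural cells, 0.292 for neurons and 0.192 for endothelium. The study itself counted more astrocytes than microglia in its VM-glial cultures. In such a mixture, fewer cells of a type and less RNA per cell cannot be told apart, and the part that each cell type had in the levels below was not tested.

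The sequences shown first are those of the Mmp genes that lie side by side on mouse chromosome 9, since their promoters share 2 short motifs while their values were far apart. Promoter windows of 300 bases (250 before to 50 after an annotated start, RefSeq, GRCm38.p6) were found for 32 of the 46 genes. They were searched for the AP-1 motif TGANTCA, which reads the same on both strands, and for the TATA box TATAAA on the gene's strand. AP-1 is the Fos and Jun transcription factor family, and the TATA box is the element that places the start of transcription in many inducible genes. Both motifs stood together in 8 of the 10 Mmp genes of chromosome 9 and in 0 of the other 22 members with a window. The 14 members without a window could not be searched. They were Mmp2, Mmp9, Mmp16, Mmp17, Mmp19, Adamts4 to Adamts8, Adamts10, Adamts15, Adamts16 and Adamts19. Among all 32851 windows, 7.81% held the AP-1 motif, 8.32% the TATA box and 0.995% both. Counted by gene, as for the members, the shares of 27025 genes were 8.97%, 9.77% and 1.18%. The stretch around the motifs, with both motifs in capitals, is given 5′ to 3′ for each of the 8 genes.
Mmp12 (chr9:7347312-7347411, plus strand): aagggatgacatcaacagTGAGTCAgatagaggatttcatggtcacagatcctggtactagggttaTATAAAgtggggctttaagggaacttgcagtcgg
Mmp3 (chr9:7445758-7445848, plus strand): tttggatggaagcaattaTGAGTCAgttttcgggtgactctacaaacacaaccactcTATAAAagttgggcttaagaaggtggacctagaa
Mmp13 (chr9:7272461-7272531, plus strand): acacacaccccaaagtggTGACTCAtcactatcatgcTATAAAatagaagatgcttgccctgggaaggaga
Mmp10 (chr9:7502261-7502346, plus strand): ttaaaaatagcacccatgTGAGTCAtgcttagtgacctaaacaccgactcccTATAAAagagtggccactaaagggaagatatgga
Mmp1a (chr9:7464050-7464146, plus strand): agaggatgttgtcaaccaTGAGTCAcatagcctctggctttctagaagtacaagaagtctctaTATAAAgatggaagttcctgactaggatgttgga
Mmp1b (chr9:7388042-7388137, minus strand): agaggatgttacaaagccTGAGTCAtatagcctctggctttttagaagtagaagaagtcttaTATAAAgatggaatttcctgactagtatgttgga
Mmp20 (chr9:7628118-7628206, plus strand): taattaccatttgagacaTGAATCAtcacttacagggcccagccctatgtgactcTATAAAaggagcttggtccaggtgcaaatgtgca
Mmp7 (chr9:7692009-7692097, plus strand): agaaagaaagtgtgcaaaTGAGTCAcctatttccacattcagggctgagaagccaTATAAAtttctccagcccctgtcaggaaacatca

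In each of these 8 stretches the AP-1 motif preceded the TATA box, with 12 to 41 bases between them. The first base of the AP-1 motif lay 95 to 35 bases before the annotated start. The first base of TATAAA lay 58 to 7 bases before the annotated start in 7 of the genes, counting for Mmp7 the nearer of its matches, and in Mmp12 at position 5, counting the start itself as 1. These distances varied widely, so the name TATA box stands here for the letters only. Mmp12 and Mmp7 each had another annotated start whose window held neither motif. Outside chromosome 9, the TATA box alone was present in Adamts1 and Mmp21. A match describes the letters of the window and does not show that a factor was bound.

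Of the 46 genes, 37 were detected, which is 80.4% against the 67.2% of all rows. Most members, like most rows, were below 469, the median value of detected genes. It was reached by 12 members (26.1%) and by 33.6% of all rows, shares that lie near each other. Together the 46 genes held 0.185% of the sum of all values. Among the 42 proteases, 4 had values of 1000 or more, 18 were at 100 or more but under 1000, 11 at 10 or more but under 100 and 4 at 1 or more but under 10, and 5 were listed at 0.

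**Figure D1:**
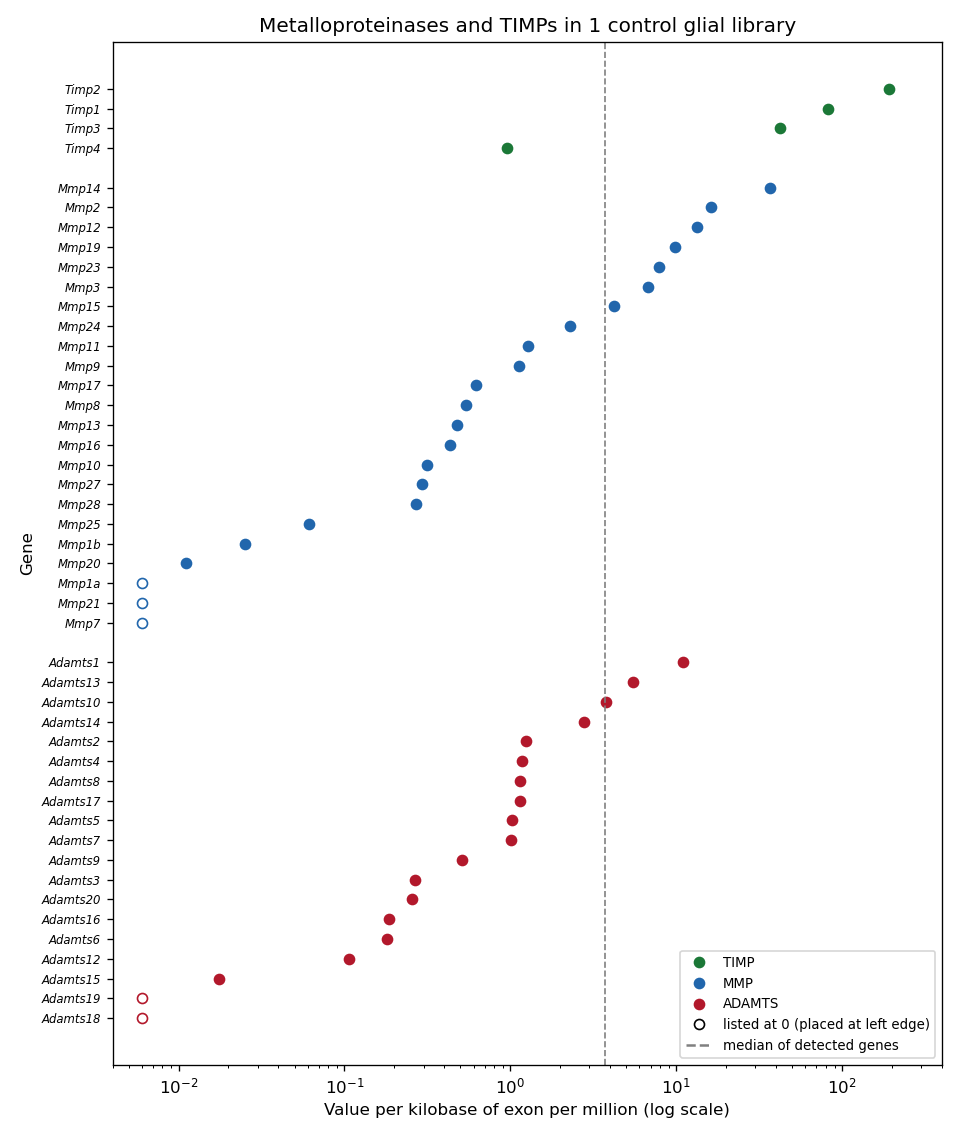
Length-scaled level (value per kilobase of exon per 1000000, log scale) of each of the 46 genes in the control library, with TIMPs in green, MMPs in blue and ADAMTS genes in red. Timp2, Timp1 and Timp3 lie to the right of every protease, Timp4 lies at 0.954 among the middle proteases, and open circles at the left edge are genes listed at 0.

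The inhibitors were examined first. Timp2 had a value of 20529, which was the highest of the 46 genes and above 99.1% of detected genes. Its protein, besides inhibiting MMPs, links proMMP2 to the membrane protease MMP14 for activation. Timp3, whose protein stays bound to the matrix and also inhibits ADAM and ADAMTS enzymes, had a value of 9533. Timp1, an inducible inhibitor that binds proMMP9, had a value of 1999, and Timp4 was far lower at 155.

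Division by exon length changed their order. The length-scaled level was 191 for Timp2, 81.7 for Timp1, 42.5 for Timp3 and 0.954 for Timp4. Timp1 thus stood in the third place by value and in the second per length, because its annotated exons add up to 0.888 kb against 8.14 kb for Timp3. With the longest annotated transcript as the length, the level of Timp3 was 73.2 and that of Timp1 82.1, so the distance between this pair depended on the transcript model. Timp2 made up 60.4% of the summed length-scaled level of the TIMPs, Timp1 25.8%, Timp3 13.4% and Timp4 0.302%.

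The TIMP genes have an unusual genomic setting, in that Timp1, Timp3 and Timp4 each lie within a synapsin gene on the opposite strand. Synapsins are neuronal synaptic vesicle proteins. In GRCm38, Timp1 (chromosome X, 20870166 to 20874735, plus strand) lies within Syn1, Timp3 (chromosome 10, 86300372 to 86349506, plus strand) within Syn3, and Timp4 (chromosome 6, 115241892 to 115252205, minus strand) within Syn2. Timp2 (chromosome 11, 118301069 to 118355740, minus strand) lies within no protein-coding gene, and itself spans the small gene Cep295nl. The value of Syn1 was 88 and that of Syn3 was 70. The length-scaled level of Timp1 was 84.4 times that of the gene around it, and that of Timp3 205 times. By undivided value the ratios were 22.7 and 136.

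The third pair was level. Timp4 was at 155 and Syn2 at 200, with length-scaled levels of 0.954 and 1.03. The exons of Timp3 and Syn3 overlap over 1733 bases and those of Timp4 and Syn2 over 90 bases, while Timp1 and Syn1 share no exonic base. The strand setting of the counting was not stated, so reads in the shared bases could have gone to either gene or to neither. Among the neuron markers of the same library, Map2 was at 868, while Snap25 was at 86, Rbfox3 at 20 and Syt1 at 6. The part of neurons in the synapsin values was not tested.

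**Figure D2:**
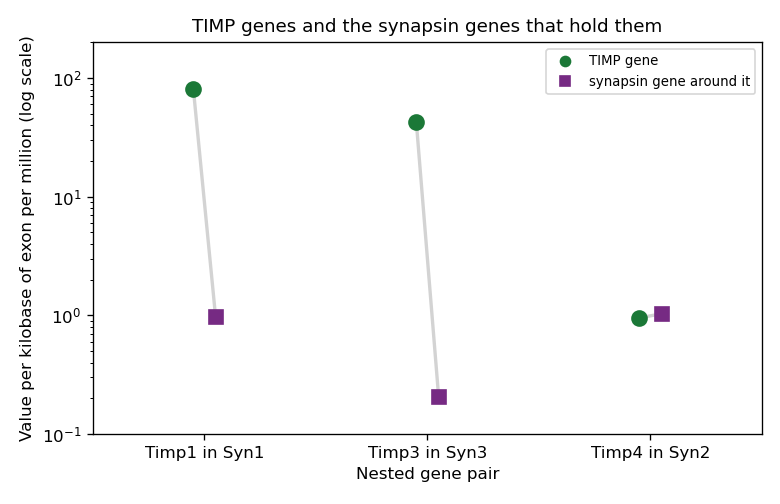
Length-scaled level (value per kilobase of exon per 1000000, log scale) of Timp1, Timp3 and Timp4 (circles) and of the synapsin gene that holds each of them (squares) in the control library. Timp1 and Timp3, at 81.7 and 42.5, lie far above Syn1 (0.968) and Syn3 (0.207), while Timp4 and Syn2 lie side by side.

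Among the proteases, the membrane-type enzymes contained the highest gene. Mmp14 encodes MT1-MMP, a collagenase of the cell surface and the main activator of proMMP2, and lies on chromosome 14 (54431612 to 54445364, plus strand). Its value was 6051, above 95.4% of detected genes, and its length-scaled level of 36.8 was 27.5% of the sum over the 42 proteases. The other membrane-type genes were lower, with Mmp15 at 627, Mmp24 at 295, Mmp17 at 113 and Mmp16 at 104. Mmp25, which is best known from leukocytes, was at 9 and was not detected. Exons of Mmp24 overlap a gene on the opposite strand that had a value of 686.

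The gelatinases, which cut denatured collagen and basement membrane collagen, differed widely. Mmp2 (chromosome 8, 92827291 to 92853420) had a value of 1515 and Mmp9 (chromosome 2, 164940780 to 164955850) a value of 110. On the length-scaled level, Mmp2 at 16.3 was 14.5 times Mmp9 at 1.13. The set of genes whose proteins form the MMP2 activation complex therefore included the highest TIMP (Timp2) and the highest 2 MMPs per length (Mmp14 and Mmp2, with the union of exons as the length). The level of Timp2 was 5.19 times that of Mmp14, and that of Mmp14 was 2.26 times that of Mmp2. Whether these transcripts came from the same cells cannot be told in a bulk library.

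Among the secreted MMPs with other roles, Mmp12, the macrophage metalloelastase, had the second highest protease value, 2673. Its length-scaled level was 13.4, or 21.7 with the longest annotated transcript as the length. By the latter it exceeded Mmp2, which was then at 17.9, so the order of Mmp2 and Mmp12 turned with the transcript model. The stromelysins, which cut proteoglycans and activate other proMMPs, had values of 337 for Mmp3, 98 for Mmp11 and 15 for Mmp10. Mmp3 is the MMP that the study followed as a senescence-associated protein, and its length-scaled level of 6.79 was above 63.8% of detected genes, while its value was above only 43.2%, so its side of the median turned with the scale. Exons of Mmp11 overlap Chchd10 on the opposite strand, which had a value of 2603.

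The collagenases that cut fibrillar collagen were near the detection minimum. Mmp8 was at 36, Mmp13 at 35 and Mmp1b at 1, and Mmp1a was listed at 0. The matrilysin Mmp7 was also listed at 0. Of the remaining MMPs, Mmp19 was at 955, Mmp23 at 506, Mmp28 at 29, Mmp27 at 18 and Mmp20, the enamel protease, at 1. Mmp21 was listed at 0. Mmp19 exons overlap Tmem198b on the opposite strand (value 823).

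The 10 Mmp genes of chromosome 9 occupy 427 kb (7272514 to 7699585). Their values, in order along the chromosome, were 35 for Mmp13, 2673 for Mmp12, 1 for Mmp1b, 337 for Mmp3, 0 for Mmp1a, 15 for Mmp10, 36 for Mmp8, 18 for Mmp27, 1 for Mmp20 and 0 for Mmp7. Mmp12 alone held 85.8% of the summed value of the cluster. Only Mmp12 and Mmp3 exceeded 36, and they were not neighbours, since Mmp1b lies between them. The median value was 16.5 in the cluster and 113 in the 13 MMP genes elsewhere in the genome.

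Values and motifs are set side by side as a description only, since the motifs were chosen after the values were seen. Whether the motifs act in this culture was not tested. The 8 genes with both motifs in a window ran from 0 to 2673, and 6 of them were at 35 or lower, while Mmp8 and Mmp27, with neither motif, were at 36 and 18. Mmp12 and Mmp1b are convergent and their exons overlap over 157 bases, yet their values were 2673 and 1. Transcripts of Mmp1a and Mmp1b are 90.5% identical over 1453 aligned bases, and those of Mmp3 and Mmp10 are 81.9% identical over 1347. The treatment of reads that map to several places was not stated, which leaves the split between such relatives uncertain.

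**Figure D3:**
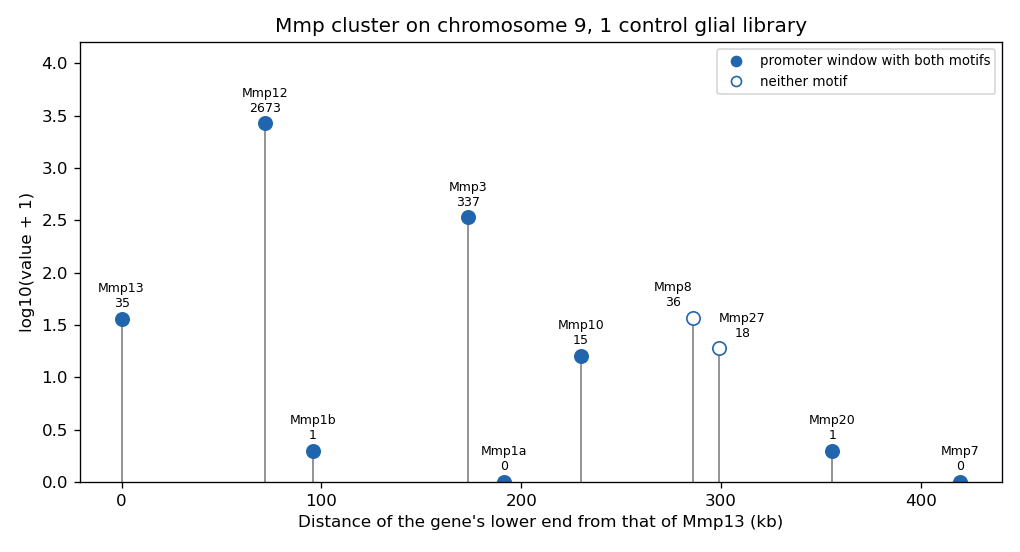
Values of the 10 Mmp genes of chromosome 9 in the control library, as log10(value + 1), against the distance of each gene from Mmp13 in kb. Filled circles are genes with both promoter motifs and open circles are genes with neither, and the numbers are the values, with Mmp12 at 2673 and Mmp3 at 337 above all others.

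The ADAMTS genes were lower than the MMPs in sum, but not in the median over all genes of each family. Of 19 ADAMTS genes 16 were detected (84.2%), with a median value of 155 and a median length-scaled level of 1.02 over all 19. Of 23 MMPs 17 were detected (73.9%), with medians of 98 and 0.538 over all 23. The detected share of all rows was 67.2%. Over detected genes only, the median value was 194 for the ADAMTS genes and 113 for the MMPs. The order of the length-scaled medians then turned, with 1.08 for the ADAMTS genes and 1.28 for the MMPs. The 7 proteoglycanases, which cut aggrecan, versican, brevican and neurocan, were led by Adamts1 at 1597 (chromosome 16, 85793827 to 85803113, minus strand). They also included Adamts5 at 304, Adamts9 at 212, Adamts4 at 155, Adamts8 at 145, Adamts20 at 63 and Adamts15 at 5. Adamts1 had 72.6% of the summed length-scaled level of this class, 10.9 of 15.0. Exons of Adamts8 and Adamts9 overlap genes on the opposite strand.

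A pair of proteoglycanases lies side by side on each of 2 chromosomes, and in each pair the neighbours differed. Adamts1 and Adamts5 are 53.1 kb apart on chromosome 16, and the length-scaled level of Adamts1 was 10.7 times that of Adamts5. Adamts15 and Adamts8 are 20.1 kb apart on chromosome 9, and had values of 5 and 145.

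The procollagen N-propeptidases, which trim fibrillar procollagens before fibrils form, had values of 399 for Adamts14, 318 for Adamts2 and 40 for Adamts3. The substrate transcripts Col1a1, Col1a2 and Col3a1 were much higher, at 16915, 8468 and 7901. Adamts13, whose product cuts von Willebrand factor, was at 742 and had the second highest length-scaled level of the family, 5.46. The transcript of its substrate, Vwf, was at 295 with a length-scaled level of 0.666. Of the enzymes that cut cartilage oligomeric matrix protein, Adamts7 was at 176 and Adamts12 at 32, with Comp itself at 38.

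The other ADAMTS genes were Adamts10 at 856, Adamts17 at 244, Adamts6 at 39 and Adamts16 at 35, with Adamts18 and Adamts19 listed at 0. Adamts10, a protein associated with fibrillin microfibrils, was the second highest of the family by value and the third per length, at 3.76. Adamts7 exons overlap Tbc1d2b on the opposite strand (value 923).

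Proteases were then set against inhibitors. The summed length-scaled level was 316 for the 4 TIMPs and 134 for the 42 proteases, which is a ratio of 2.36. On this scale none of the proteases exceeded Timp2, Timp1 or Timp3, whereas 20 of them exceeded Timp4. By undivided value, Mmp14 (6051) and Mmp12 (2673) exceeded Timp1 (1999). The ratio rested on Timp2. Without it the sum of the inhibitors was 125, below the 134 of the proteases, and the ratio was 0.933. Without division by length the sums were 32216 and 18890, a ratio of 1.71. The median of the inhibitors exceeded that of the proteases by 5.25 on the log2(length-scaled level + 1) scale.

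**Figure D4:**
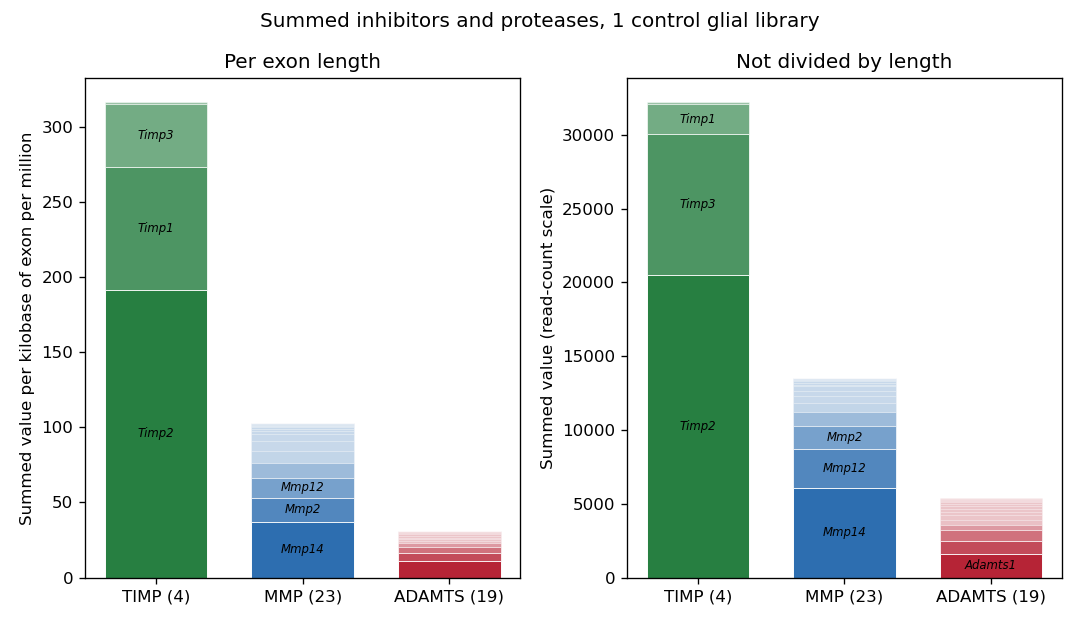
Summed length-scaled level (left, value per kilobase of exon per 1000000) and summed value (right, read-count scale) of the 4 TIMPs, 23 MMPs and 19 ADAMTS genes in the control library, stacked by gene. The TIMP bar reaches 316 on the left and 32216 on the right and is the tallest in both, and Timp2 is its largest segment.

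Within the proteases, the MMPs summed to 102.9 and the ADAMTS genes to 31.2 on the length-scaled level, a ratio of 3.30. The highest 3 proteases per length (Mmp14, Mmp2 and Mmp12) held 49.6% of the protease sum and the highest 5 held 65.1%. A few genes therefore carried the family sums. The family medians over all members, given above, ran the other way, but the length-scaled medians of detected members did not. These are transcript levels, and neither enzyme activity nor secreted protein was measured.

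Genes that act with these families were taken from lists grouped by function, which were chosen with earlier results of these data known. The detected counts of these lists stand beside a detected share of 67.2% over all rows. Of 11 genes for proenzyme activation and the plasminogen system, 9 were detected. The highest per length were Plau (urokinase, which makes plasmin, an activator of several proMMPs) at 80.7 and its inhibitor Serpine2 at 52.5. Furin, which cleaves the propeptide of membrane-type MMPs and ADAMTS enzymes, was at 17.4, and Plg, the plasminogen gene itself, was listed at 0. Of 7 other inhibitors and regulators, 5 were detected. Bsg (basigin, an inducer of MMPs) was at 525 and Lrp1 (an endocytic receptor that clears MMPs and TIMPs) at 110. Pcolce was at 19.8 and A2m at 15.7. Reck, a membrane-anchored MMP inhibitor, was at 0.835, Tfpi2 was at 0.0415 and not detected, and Pzp was listed at 0.

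All 9 ADAM sheddases, cell-surface relatives of the ADAMTS enzymes, were detected. Their summed length-scaled level was 2.28 times that of the 42 MMP and ADAMTS genes. Adam8 was highest at 131 and Adam9 second at 59.7, with Adam33 lowest at 0.108. Adam17, the tumour necrosis factor convertase that Timp3 inhibits, was at 21.9, and the level of Timp3 was 1.94 times that.

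Of 6 ADAMTS-like genes, which resemble ADAMTS enzymes but lack the protease domain, 5 were detected. Adamtsl5 was highest at 9.48 and Adamtsl4 second at 6.08, and Papln was lowest at 0.0322. Of 9 substrate genes of the ADAMTS enzymes, 8 were detected. Among the proteoglycans, Ncan (neurocan) was at 15.2, Bcan (brevican) at 11.9 and Vcan (versican) at 3.48 on the length-scaled level. Acan (aggrecan), from which the aggrecanases take their name, had a value of 3 and was not detected.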

How the data were processed

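RNA of 1 control culture was prepared with Trizol and a SMARTer mRNA library kit. According to the study's methods, the authors mapped reads to GRCm38/mm10 with STAR and counted them on exons of RefSeq Release 105 genes with HTSeq-count. The submitters' processing notes instead name TopHat, together with edgeR and mm10. Versions, strand setting and normalisation were not given in the sources used here. The deposited values were whole numbers that the authors normalised in an unstated way, taken here as a score (read-count scale) with no intervals or detection floors.

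Exon lengths (union of exons), coordinates and overlaps (13 of the 46 genes share exonic bases with another annotated gene, the strand setting being unknown) came from GENCODE release M21 (GRCm38), which is not the annotation the authors counted on. A length was found for 98.4% of rows and for each of the 46 genes. Levels were scaled per kilobase and per 1000000 of the sum, and 1 was added before log2. Genes were detected at 10 or more. Overlaps used bedtools 2.31.1 and transcript similarity BLAST 2.17.0, with Python 3.11.15, numpy 2.4.6, pandas 2.3.3 and matplotlib 3.10.9. The ratio and median functions were checked on values drawn from this library and multiplied by known factors, and the rank function on whole numbers. These checks bear on the code only. With 1 library no test was run. The gene classes and lists were chosen with earlier results of these data known, and the promoter motifs, neighbouring pairs and read-sharing relatives after the values were seen. Every gene whose symbol met the rule was named. Of each list of functionally related genes, the detected number, the highest 2 and the lowest gene were given, and of each marker list the detected number and the range, with further genes chosen after their values were seen. Cep295nl had no row that could be used. Alternatives were other detection minima, lengths, pseudocounts and totals, and sums without their highest gene.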

Additional observations from a re-analysis of the deposited data

How the results depend on the processing

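Detected members numbered 41, 39 and 26 at minimum values of 1, 3 and 100, against 37 at 10. The inhibitor to protease ratio was 1.71 without division by length, 1.89 with the longest transcript as length and 3.25 without the highest protease (Mmp14). It turned to 0.933 without the highest inhibitor (Timp2), which by construction removes the largest part of the inhibitor sum. The inhibitor minus protease median was 6.44 with a pseudocount of 0.1, 4.81 over members at 10 or more and 5.03 without division by length, on the log2 scale. The MMP to ADAMTS ratio was 2.52 without division by length, 3.92 with the longest transcript, 2.12 without Mmp14 and 5.08 without Adamts1. The members' share of all values was 0.214% when the 10 highest genes were left out of the total and 0.19% without Rn45s. Apart from the ratio without Timp2, each of these ratios stayed above 1 and each difference stayed positive. No interval was available to judge these shifts, because the depth is unknown and there is 1 library, and for the same reason no replicate could be left out.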
